A study of Mus musculus with 18 samples.

Results

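α-Ketoglutarate (AKG) was compared with glutamine as the supplement of mouse bone marrow-derived macrophages made endotoxin-tolerant: 4 libraries of cells kept without glutamine but with AKG were set against 4 libraries of cells kept with glutamine, over all genes. These are 8 of the 18 RNA sequencing libraries of the series. 4 further libraries of tolerant cells kept without glutamine and without AKG entered the same fit and are given beside the others. All were C57BL6/J wild type. Marrow was differentiated for 7 days in DMEM with serum (80%) and medium conditioned by L929 cells (20%), a source of macrophage growth factor. The series asked which transcripts depend on glutamine metabolism in tolerant macrophages. The comparison here asks which of them AKG did not bring to the level seen with glutamine, and which it took past that level. The sources used here do not give the agent and dose that made the cells tolerant, the dose and form of AKG, the length of each treatment or the number of animals. No label says that replicates came from separate animals or cultures. The p-values therefore measure the spread between these libraries that is left after the replicate pairs described below are allowed for. That spread may be technical.

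Glutamine enters the mitochondrion, is deaminated to glutamate, and glutamate gives AKG, which feeds the tricarboxylic acid cycle. AKG supplied from outside can take over that carbon entry. It carries no nitrogen, which glutamine gives to purines, pyrimidines, hexosamines and asparagine. AKG is also the co-substrate of dioxygenases that hydroxylate collagen and the hypoxia-inducible factors and that demethylate histones and DNA. Endotoxin tolerance is the state after a previous exposure to lipopolysaccharide in which inflammatory genes respond weakly to the next one.

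Library totals ran from 32.4 to 37.6 M counts with glutamine, from 33.6 to 37.8 M with AKG and from 28.3 to 33.4 M without either. In the 8 libraries the first principal component took 73.8% of the variance and separated replicates 1 and 2 from replicates 3 and 4 in both groups, and the second took 12.3% and separated AKG from glutamine. The labels do not say what the replicate numbers mark. Unless stated otherwise, fits therefore hold a term for replicates 1 and 2 against 3 and 4, and values are given for both pairs. That term takes the difference shared by the pairs out of the spread against which a change is tested, so p-values leave it out. If the libraries of a pair are copies of the same culture, the independent units per group are fewer than 4. The p-values would then be too small. Of the 12492 genes tested, 1155 (9.25%) passed an adjusted p of 0.05 in edgeR's quasi-likelihood test, 314 (2.51%) higher with AKG and 841 (6.73%) lower. The change exceeded 1 on the log2 scale in 50 of the former and 382 of the latter. Levels are given in CPM, counts relative to the TMM-scaled library total, and fold changes are log2 values of AKG minus glutamine unless another pair is named. The median log2 fold change of all genes tested was -0.0035. Without the replicate term, no gene passed and 919 had an unadjusted p under 0.05. With the replicate number as a block, 206 genes were higher and 678 lower. Replicates 1 and 2 fitted alone gave 5.25% of genes higher and 6.35% lower, and replicates 3 and 4 alone 1.13% and 5.05%. Counts of list genes within 1 pair are to be read beside these shares. The number higher with AKG fell to 189, 187, 154 and 172 without glutamine replicate 2, glutamine replicate 4, AKG replicate 1 and AKG replicate 4, and was 525 when replicate 3 without glutamine was left out. The 3 comparisons of the design (AKG with glutamine, no glutamine with glutamine, AKG with no glutamine) share libraries, so their values are set side by side only.

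Of 13 macrophage markers, 2 were higher with AKG: Fcgr1, a receptor for immunoglobulin G (0.48, adjusted p = 0.005), and Mertk, a receptor for the uptake of dying cells (0.21, adjusted p = 0.045, 0.094 with the block). None was lower, and the median was 0.09. Mertk lost the call in 8 of 12 fits that left out a library. All 8 of the 10 stromal fibroblast markers that could be tested were lower with AKG, with a median of -1.82. With the block 7 were, and Pdgfra, a growth factor receptor, was not (0.076). Their summed level in replicates 1 to 4 was 152, 111, 385 and 397 CPM with AKG, 397, 435, 2079 and 2050 with glutamine and 55.4, 50.4, 210.1 and 193 without either. No stromal marker was at 0 in every library. By their median differences, matrix and cell division genes, described below, were lowest without either supplement and highest with glutamine, as these markers were, and the part of stromal cells in those results was not tested. In bulk RNA, fewer cells of a type and less RNA per cell cannot be told apart. 1 of 3 neutrophil markers tested was lower (S100a8, -1.07, adjusted p = 0.022). No tested dendritic, mast, lymphoid, erythroid, endothelial, osteoclast or progenitor marker passed.

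**Figure D1:**
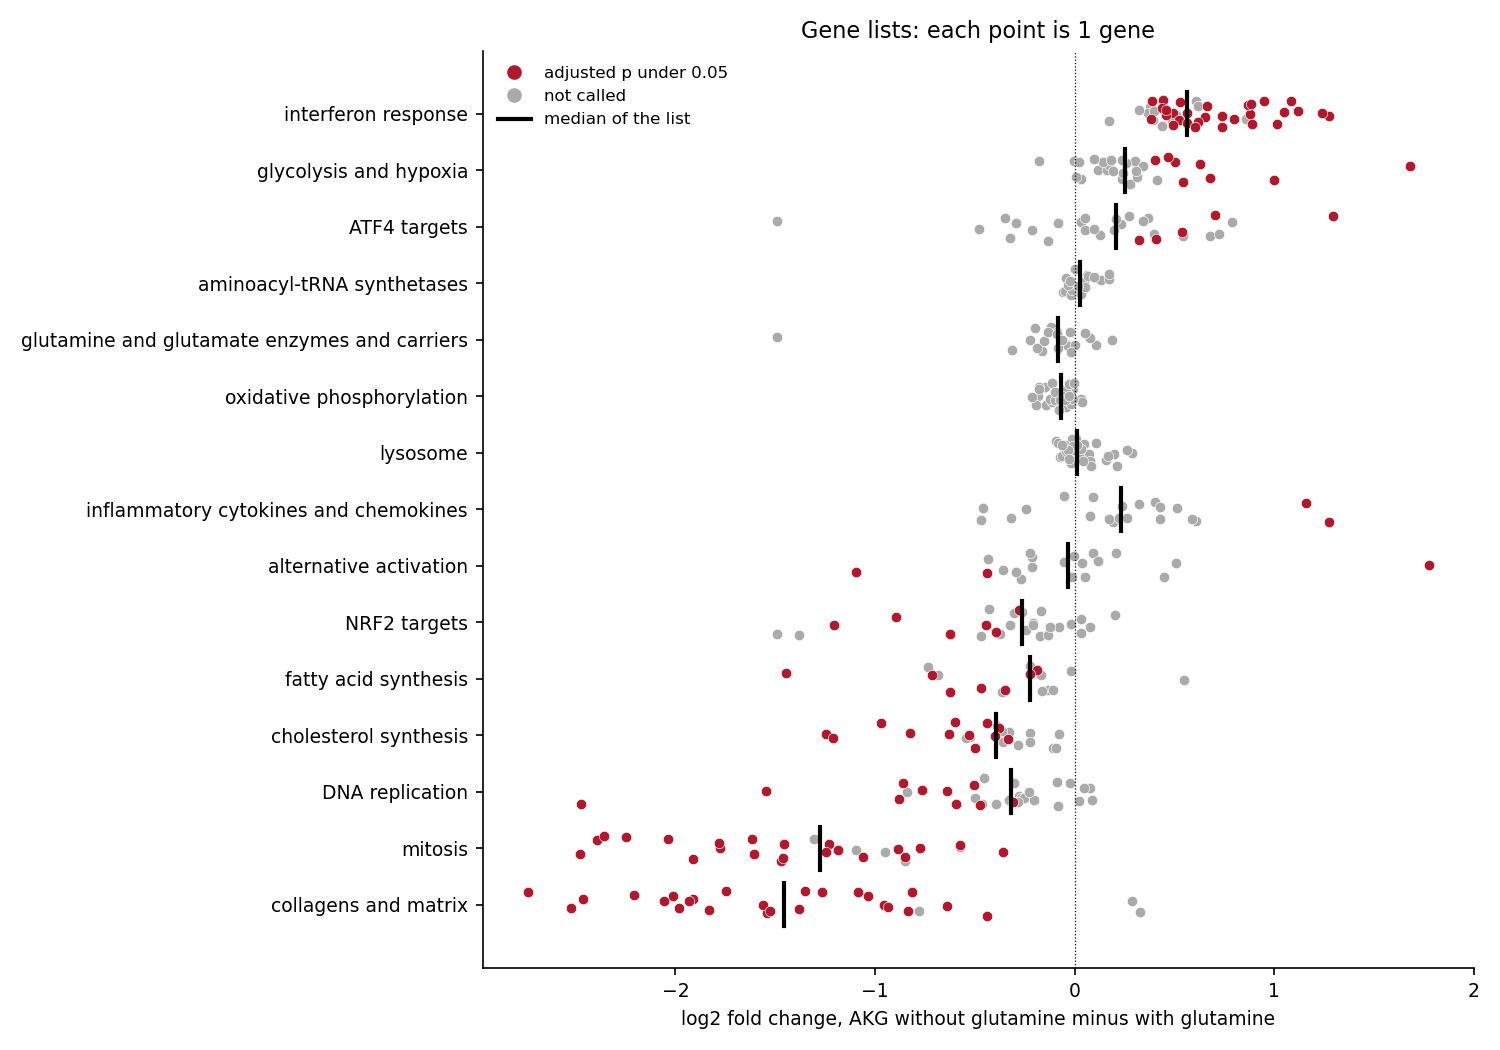
Log2 fold change (AKG without glutamine minus with glutamine, horizontal axis) of the tested genes of 15 lists (rows). Each point is 1 gene, red where its adjusted p was under 0.05 and grey otherwise, and the black bar is the list's median. Interferon response genes lie to the right of 0 (median 0.56), and genes of mitosis and of collagens and matrix to the left (-1.28 and -1.45).

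Interferon response genes, which are switched on by type I interferon and viral or bacterial nucleic acid and encode antiviral effectors and their regulators, stood higher with AKG than with glutamine. Of 44 tested, 31 rose and none fell, with a median log2 fold change of 0.56 (0.44 within replicates 1 and 2, 0.71 within replicates 3 and 4). The remaining 13 had values of 0.17 (Irf9) to 0.86 (Ifi44). All 44 were higher with AKG within each pair of replicates, where 9.22% of all genes tested were. With the block 30 rose. Leaving out each library in turn gave 21 to 39. In the other comparisons the list's median was -0.25 without glutamine against glutamine (0 of 44 higher, 6 lower, where 10.5% and 14.4% of all genes tested were) and 0.82 with AKG against no glutamine (42 higher, where 9.91% of all genes tested were higher and 8.88% lower).

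Rsad2, which encodes the antiviral enzyme viperin (chromosome 12, 26442746 to 26456452, minus strand, GRCm38), stood at 318, 256, 195 and 216 CPM in replicates 1 to 4 with AKG. With glutamine it stood at 146, 123, 73.8 and 74.9 CPM, and without either at 171, 103, 93.5 and 113 CPM. The lowest AKG library was above the highest glutamine library (log2 fold change 1.28, SE 0.16, adjusted p = 0.00035). Against glutamine, the cells without glutamine differed by 0.25 (adjusted p = 0.28). Isg20, an exonuclease that degrades viral RNA, stood at 32.8, 29.5, 17.3 and 19.0 CPM with AKG and 18.2, 16.3, 10.03 and 9.59 CPM with glutamine (log2 fold change 0.87, SE 0.08, adjusted p = 8.2e-05). The groups overlapped across replicate pairs but not within them. Irf7, the transcription factor that amplifies interferon production, stood at 1436, 1491, 1075 and 1176 CPM with AKG, 1015, 982, 743 and 658 CPM with glutamine and 841, 745, 739.8 and 612 CPM without either (log2 fold change 0.62, SE 0.08, adjusted p = 0.00067). Each AKG library was above every glutamine library for Irf7, which overlaps 1 other gene on the opposite strand. Mx1, Ifit1, Ifit2 and Usp18, antiviral effectors and a brake on the interferon receptor named after their values were seen, rose by 1.01, 0.88, 1.09 and 0.74. Of the signal transducers, Stat2 passed (0.52, adjusted p = 0.024) and Irf9 did not (0.17, adjusted p = 0.17).

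The 12 largest rises also held genes outside the interferon list. Ms4a4c, a membrane protein of the MS4A family, stood at 205, 183, 72.8 and 75.6 CPM with AKG, 91.1, 77.3, 21.9 and 18.6 CPM with glutamine and 53.2, 36.7, 16.7 and 21.1 CPM without either (log2 fold change 1.51, SE 0.17, adjusted p = 0.00023). Replicates 1 and 2 were the high pair in each group. Ifit1bl1, a relative of the Ifit RNA sensors, rose from 3.22 to 20.0 CPM to 12.6 to 48.1 CPM (log2 fold change 1.68, SE 0.20, adjusted p = 0.00026). Slfn4 (a Schlafen family gene of myeloid cells), Gbp4 and Iigp1 (interferon-inducible GTPases) and Pydc3 (a PYHIN family gene) rose by 1.31, 1.25, 1.24 and 1.21, with adjusted p of 0.0018 to 0.014. Within replicates 3 and 4 alone, Iigp1 and Pydc3 did not pass. H2-Q6, a non-classical class I histocompatibility gene, stood at 46.4, 44.0, 32.1 and 35.4 CPM with AKG, 19.8, 19.6, 14.5 and 12.4 with glutamine and 28.3, 28.1, 25.5 and 23.2 without either (log2 fold change 1.26, SE 0.08, adjusted p = 5.1e-06). For H2-Q6 the cells without glutamine lay between the other groups, within each pair of replicates. Several of these genes have close paralogs, and reads shared between copies could be split by the counting, so their values are less certain.

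**Figure D2:**
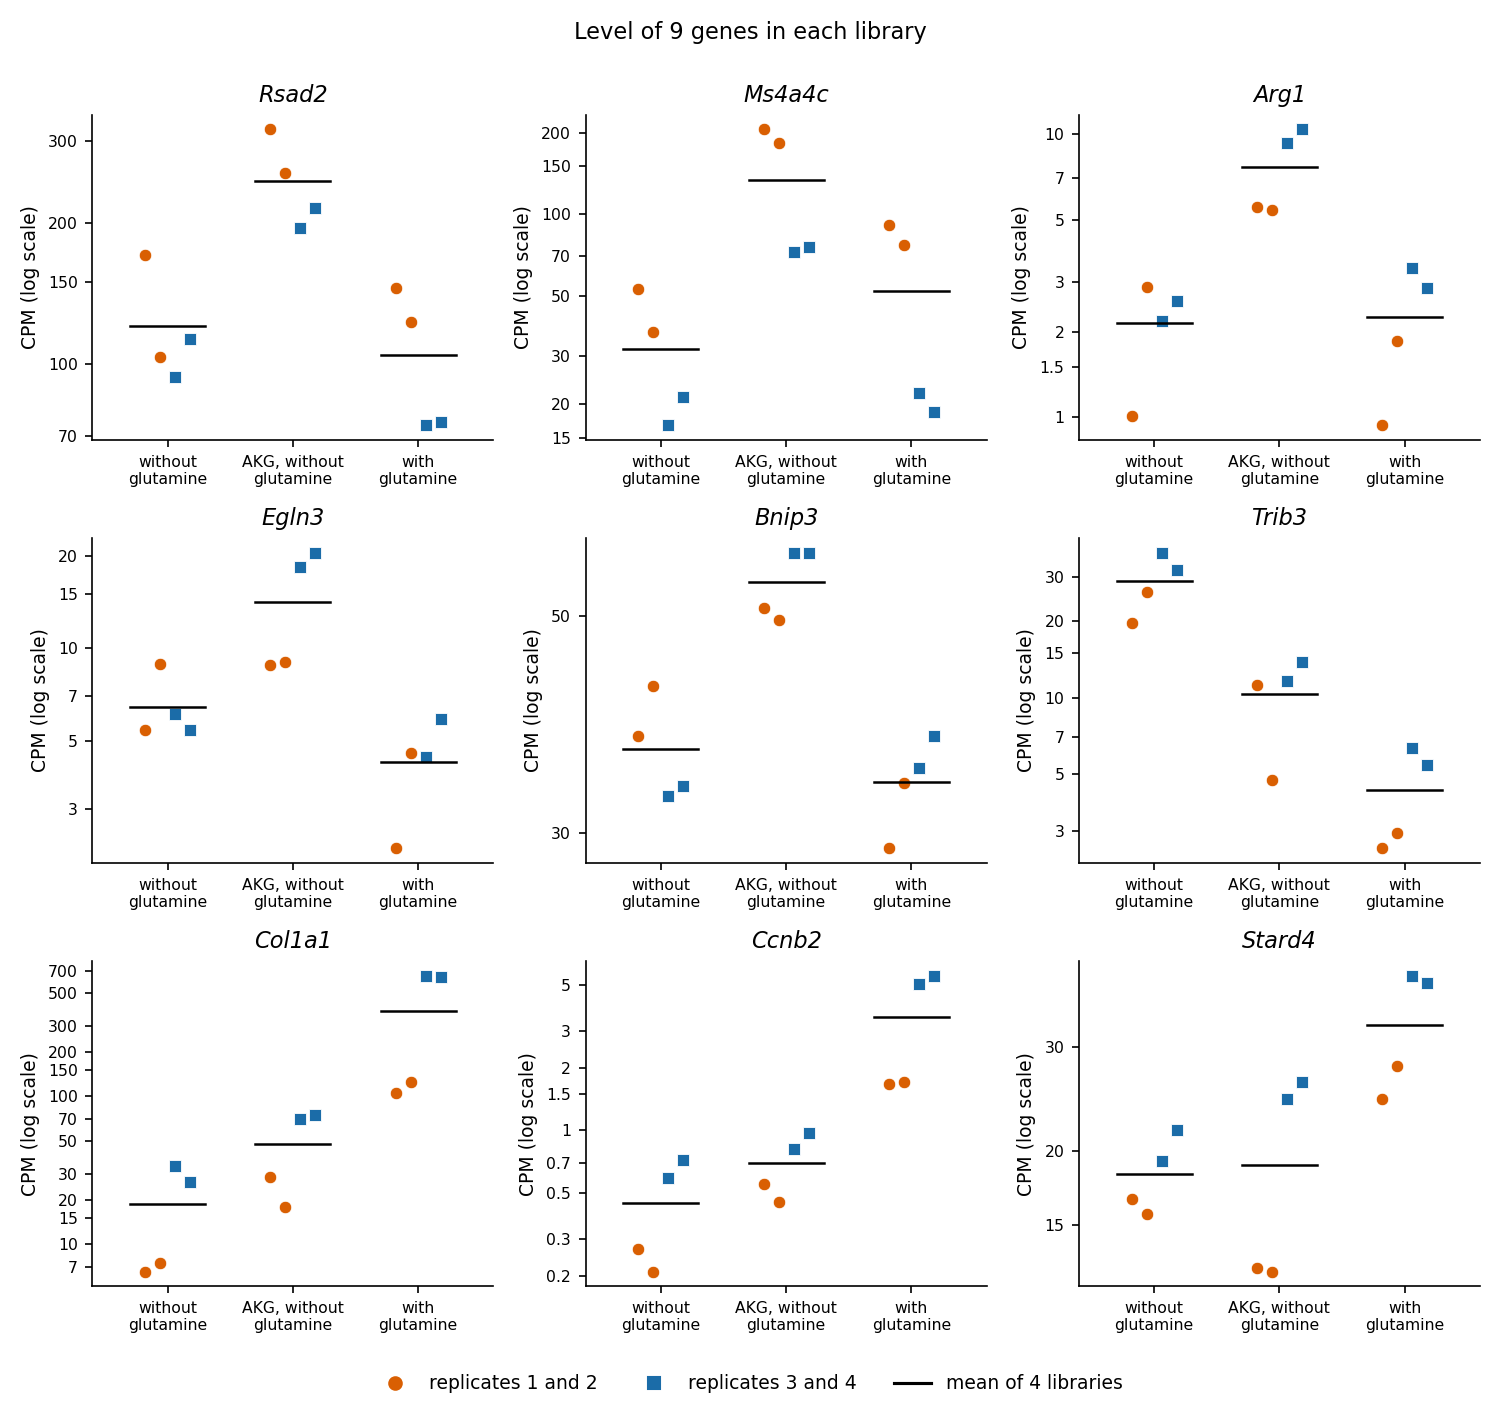
Level of 9 genes in each of the 12 libraries (CPM, logarithmic vertical axis). Circles are replicates 1 and 2, squares are replicates 3 and 4, and the bar is the mean of 4 libraries. Rsad2, Arg1, Egln3 and Bnip3 are higher in each AKG library than in any glutamine library, and Col1a1 and Ccnb2 are lower.

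Promoters were searched for the tested genes of a list, called or not, here and below. The shares found therefore describe the lists and not the response to AKG. The search covered the 250 bases before each RefSeq start (GRCm38.p6), on both strands, in 32851 promoters. GAAA followed by NN and again GAAA, the interferon-stimulated response element bound by interferon regulatory factors, was found at 20 of 40 starts of the list against 2.98% of all promoters. TTCNNNGAA, which can overlap it and is the element bound by STAT dimers, was found at 6 of 40 against 7.02%. 33 genes of the list are in the table. A match is a description of the letters and not evidence of binding. The genes shown are those with the smallest p among the called members with a match, from just before the farthest match to the last base before the start, 5′ to 3′ on the gene's strand. Capitals mark the matched letters, or their reverse complement. The stretches lie at chr12:26456453-26456582 (minus strand), chr1:174031756-174031899 (minus strand), chr4:156200819-156200906 (minus strand) and chr19:34583363-34583528 (plus strand).
Rsad2: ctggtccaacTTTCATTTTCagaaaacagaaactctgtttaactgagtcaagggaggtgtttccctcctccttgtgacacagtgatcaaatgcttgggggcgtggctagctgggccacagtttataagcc
Ifi205: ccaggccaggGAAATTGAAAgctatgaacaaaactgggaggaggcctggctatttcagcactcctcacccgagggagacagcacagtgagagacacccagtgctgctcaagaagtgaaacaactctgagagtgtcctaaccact
Isg15: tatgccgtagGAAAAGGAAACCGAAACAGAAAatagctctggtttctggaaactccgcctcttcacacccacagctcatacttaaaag
Ifit3: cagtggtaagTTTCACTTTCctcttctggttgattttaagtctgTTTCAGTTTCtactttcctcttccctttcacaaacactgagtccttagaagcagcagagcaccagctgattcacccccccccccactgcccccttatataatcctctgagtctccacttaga
These genes were picked among those called higher with AKG, so their direction follows from the choice. All 44 tested genes of the list, with a match or not, stood higher with AKG in each pair of replicates. Ifi205, a PYHIN family gene, was at 19.0, 16.8, 10.1 and 8.60 CPM with AKG and 8.22, 7.20, 4.15 and 5.16 CPM with glutamine (log2 fold change 1.12, SE 0.17, adjusted p = 0.0013). Isg15, a ubiquitin-like protein, rose by 0.74 and Ifit3, an antiviral member of the Ifit family, by 0.89 (adjusted p = 0.0053 and 0.0068). The stretch of Isg15 holds 3 overlapping matches and that of Ifit3 holds 2.

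The median change of inflammatory genes differed between the pairs of replicates. A test of whether a gene's change depended on the pair called 1 of 22 (1.54% of all genes tested were called). Of 22 cytokine, chemokine and effector genes tested, 2 rose and none fell in the joint fit, with a median of 0.23 (0.51 within replicates 1 and 2, -0.01 within replicates 3 and 4). Replicates 1 and 2 alone gave 7 higher (5.25% of all genes tested there were) and replicates 3 and 4 alone 3 higher and 1 lower (1.13% and 5.05% of all). With the block 3 rose, Il10 being the one gained (adjusted p = 0.023). Cxcl10, an interferon-inducible chemokine for T cells, stood at 15.7, 11.8, 2.25 and 2.80 CPM with AKG and 6.54, 5.59, 0.995 and 1.29 CPM with glutamine (log2 fold change 1.16, SE 0.17, adjusted p = 0.0011). Nos2, the inducible nitric oxide synthase, stood at 2.04, 1.33, 1.19 and 1.35 CPM with AKG and 0.654, 1.01, 0.332 and 0.490 CPM with glutamine (log2 fold change 1.27, SE 0.23, adjusted p = 0.0046). For Cxcl10 replicates 1 and 2 were the high pair in each group. Nos2 did not pass within replicates 1 and 2 alone. Tnf (log2 fold change 0.08, SE 0.17, adjusted p = 0.89), Il1b (log2 fold change -0.05, SE 0.28, adjusted p = 0.97) and Il6 (log2 fold change -0.46, SE 0.64, adjusted p = 0.81) did not pass. Il6 stood at 0.162 to 0.309 CPM with AKG, 0.187 to 0.498 CPM with glutamine and 0.569 to 6.08 CPM without either. Without glutamine it differed from glutamine by 2.78 (adjusted p = 0.0012). The AKG and glutamine libraries overlapped for Il6, and each of them lay below each library without glutamine.

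Arg1, which encodes arginase and is a marker of alternatively activated macrophages, had the largest rise that met the naming rule. Arg1 (chromosome 10, 24915221 to 24927484, minus strand) stood at 5.52, 5.40, 9.31 and 10.4 CPM with AKG, 0.934, 1.85, 3.37 and 2.86 CPM with glutamine and 1.004, 2.88, 2.19 and 2.56 CPM without either (log2 fold change 1.78, SE 0.27, adjusted p = 0.0016). Each AKG library was above every other library, at 1.95 within replicates 1 and 2 and 1.66 within replicates 3 and 4. Cells without glutamine differed from those with it by 0.01 (adjusted p = 0.99). None of the other 19 genes tested of the alternative activation list was called higher in the joint fit. Hbegf, a growth factor, fell (-1.10, adjusted p = 0.016), as did Fn1, fibronectin (-0.44, adjusted p = 0.022, 0.052 with the block). The median of all 20 was -0.03, and 8 of them had positive values. Replicates 1 and 2 alone gave 2 higher and 4 lower, and replicates 3 and 4 alone 1 higher and 2 lower. Hbegf lost the call without replicate 3 or 4 of either group (adjusted p up to 0.063), and Fn1 without glutamine replicate 1 or 2 or AKG replicate 2 or 3 (adjusted p up to 0.07). Mrc1, the mannose receptor, stood at 984, 1066, 452 and 447 CPM with AKG, 1307, 1198, 460.5 and 536 CPM with glutamine and 681, 610.5, 149.5 and 224 CPM without either (log2 fold change -0.21, SE 0.14, adjusted p = 0.47). Without glutamine Mrc1 differed from glutamine by -1.18 (adjusted p = 0.00012).

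Genes of glycolysis and of the response to low oxygen, which are induced by hypoxia-inducible factors when prolyl hydroxylation stops, were in part higher with AKG. Of 30 tested, 8 rose and none fell, with a median of 0.25. 7 rose with the block and 4 without AKG replicate 4. Replicates 1 and 2 alone gave 11 higher and 1 lower (5.25% and 6.35% of all genes tested there were). Replicates 3 and 4 alone gave 5 higher (1.13% of all). Egln3, one of the prolyl hydroxylases that mark hypoxia-inducible factors for degradation and itself a target of them (chromosome 12, 54178981 to 54203860, minus strand), stood at 8.85, 9.03, 18.4 and 20.4 CPM with AKG. It stood at 2.24, 4.58, 4.45 and 5.88 CPM with glutamine and 5.42, 8.87, 6.11 and 5.43 CPM without either (log2 fold change 1.68, SE 0.29, adjusted p = 0.0036). Bnip3, a receptor for the removal of mitochondria, stood at 50.9, 49.5, 57.9 and 58.0 CPM with AKG, 28.9, 33.7, 34.9 and 37.7 CPM with glutamine and 37.6, 42.4, 32.7 and 33.5 CPM without either (log2 fold change 0.68, SE 0.10, adjusted p = 0.0014). In both genes each AKG library was above every glutamine library. Their differences were 0.68 within replicates 1 and 2 and 0.68 within replicates 3 and 4 for Bnip3 and 1.38 within replicates 1 and 2 and 1.91 within replicates 3 and 4 for Egln3. Ankrd37, an ankyrin repeat protein, rose by 1.0 (adjusted p = 0.0021) and Ak4, a mitochondrial adenylate kinase outside the list, by 1.22 (0.0084). The others called were the glycolytic enzymes Tpi1 (0.54), Pgk1 (0.40, adjusted p = 0.054 with the block) and Pfkfb3 (0.50), the lactate exporter Slc16a3 (0.63) and the oxidase Ero1l (0.47). Vegfa, the angiogenic factor, did not pass (0.31, adjusted p = 0.53) and stood at 177, 142, 146 and 138 CPM with AKG against 246, 307, 209 and 196 CPM without glutamine. Slc2a1, the glucose transporter, did not pass either (0.30, adjusted p = 0.1).

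ACGTG, the core of the hypoxia response element, was found in the 250 bases before 20 of 42 starts of this list (28 genes), against 16.6% of all promoters. The stretches of Bnip3 at chr7:138909507-138909624 (minus strand) and Egln3 at chr12:54203875-54204113 (minus strand) are shown with that core in capitals, since their values by library are given above.
Bnip3: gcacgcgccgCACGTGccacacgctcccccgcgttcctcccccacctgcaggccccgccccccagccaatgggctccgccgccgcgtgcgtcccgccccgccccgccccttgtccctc
Egln3: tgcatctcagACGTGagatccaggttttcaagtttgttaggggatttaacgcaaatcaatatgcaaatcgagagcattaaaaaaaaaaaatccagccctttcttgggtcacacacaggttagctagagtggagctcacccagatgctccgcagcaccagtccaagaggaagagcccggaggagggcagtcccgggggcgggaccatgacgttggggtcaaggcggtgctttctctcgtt
In Bnip3 the 2 matches lie on opposite strands and overlap, and Egln3 holds 1.

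The enzymes that use AKG as a co-substrate did not move one way. Of 35 dioxygenases tested, 5 rose and 3 fell, with a median of 0.07. Of all genes tested, 2.51% rose and 6.73% fell, and the share of dioxygenases that fell was near the latter. The number higher was 1 without AKG replicate 2 or 4, 2 without glutamine replicate 4 or AKG replicate 1, and 3 without glutamine replicate 1, 2 or 3 or AKG replicate 3. It was 3 within replicates 1 and 2 alone and 1 within replicates 3 and 4 alone. The 5 were Egln3, Egln1 (0.24), the histone demethylase Kdm5b (0.25), the peroxisomal hydroxylase Phyh (0.19) and the RNA demethylase Alkbh5 (0.22). Phyh and Alkbh5 lost the call with the block (adjusted p = 0.064 and 0.055). The 3 were collagen-modifying hydroxylases: Plod2 (-0.76, adjusted p = 0.00073), P4ha3 (-1.31, adjusted p = 0.0012) and P3h1 (-0.44, adjusted p = 0.025). Plod2 stood at 3.92, 3.02, 12.8 and 13.7 CPM with AKG and 5.67, 5.45, 22.6 and 24.0 CPM with glutamine, with replicates 3 and 4 the high pair in both groups. Kdm6b, the demethylase of histone H3 lysine 27 (log2 fold change 0.04, SE 0.11, adjusted p = 0.93), and Tet2, which oxidises methylcytosine (log2 fold change -0.05, SE 0.24, adjusted p = 0.96), did not pass.

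Some targets of ATF4, the transcription factor that runs the stress response to short amino acids, stood above their level with glutamine. Whether ATF4 accounts for this was not tested. Of 29 target genes tested, 5 rose with AKG against glutamine and none fell, with a median of 0.21. The median without glutamine against glutamine was 0.41 (14 higher, 3 lower). 8 rose when replicate 3 without glutamine was left out. Replicates 1 and 2 alone gave 5 higher and 3 lower, where 5.25% and 6.35% of all genes tested were. Replicates 3 and 4 alone gave 5 higher and none lower, and DESeq2 gave 7 higher and 2 lower. Trib3, a pseudokinase that restrains the response, stood at 11.2, 4.74, 11.7 and 13.8 CPM with AKG, 2.55, 2.94, 6.36 and 5.44 CPM with glutamine and 19.7, 26.1, 37.3 and 31.8 CPM without either (log2 fold change 1.29, SE 0.23, adjusted p = 0.0041). AKG minus no glutamine gave -1.48 (adjusted p = 0.00086). Ddit3, the stress transcription factor CHOP, stood at 53.3, 35.7, 43.1 and 40.9 CPM, 25.1, 26.0, 29.7 and 25.04 CPM and 58.3, 67.2, 56.4 and 47.6 CPM in the same order (log2 fold change 0.71, SE 0.13, adjusted p = 0.0041). In both genes the AKG libraries lay above those with glutamine within each replicate pair and the group mean lay below that without glutamine. AKG replicate 2 was the lowest AKG library in each. Nupr1, a stress-induced chromatin protein (0.41, adjusted p = 0.001), Ppp1r15a, which lets translation resume (0.54, adjusted p = 0.01), and Atf3, a transcription factor (0.32, adjusted p = 0.044, 0.075 with the block), rose as well. Asns, asparagine synthetase, did not pass (log2 fold change 0.40, SE 0.25, adjusted p = 0.45): it stood at 29.0, 12.1, 43.0 and 50.4 CPM with AKG and 14.9, 14.3, 38.4 and 36.1 CPM with glutamine, which overlap, and 51.2, 54.8, 65.6 and 66.3 CPM without either. None of the 20 aminoacyl-tRNA synthetases passed (median 0.03). Without glutamine their median was 0.19, and 12 were higher.

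No enzyme or carrier of glutamine and glutamate among 23 tested passed, with a median of -0.08; 0 passed in the alternative with the block too. Glul, glutamine synthetase, stood at 462, 495, 469 and 481 CPM with AKG, 534, 535, 524 and 531 CPM with glutamine and 343, 349, 410.0 and 319 CPM without either (log2 fold change -0.16, SE 0.07, adjusted p = 0.23). Each AKG library lay between the other groups' ranges. Slc38a1, a glutamine importer, stood at 83.6 to 99.9 CPM with AKG, 78.3 to 91.3 CPM with glutamine and 114 to 128 CPM without either (log2 fold change 0.08, SE 0.07, adjusted p = 0.67). Slc7a11, which exports glutamate in exchange for cystine, stood at 8.30, 3.08, 53.2 and 46.8 CPM with AKG and 39.6, 41.4, 63.4 and 80.8 CPM with glutamine (log2 fold change -1.49, SE 0.47, adjusted p = 0.076). The AKG libraries were the lower ones in both pairs, and replicates 1 and 2 with AKG the lowest.

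Among enzymes that need glutamine's nitrogen or carry it onwards, 3 of 24 for nucleotides and hexosamines fell and none rose (median -0.09). Of all genes tested, 6.73% fell and 2.51% rose. Ctps, which aminates UTP to CTP (chromosome 4, 120539868 to 120570276, minus strand), stood at 4.69, 4.29, 8.85 and 10.6 CPM with AKG, 7.23, 7.42, 18.7 and 16.9 CPM with glutamine and 5.32, 5.15, 11.5 and 10.1 CPM without either (log2 fold change -0.80, SE 0.09, adjusted p = 0.00017). Within each pair of replicates both AKG libraries were below both glutamine libraries. Cad, which starts pyrimidine synthesis (-0.36, adjusted p = 0.014), lost the call without AKG replicate 3 or 4, and Impdh2 of guanine nucleotide synthesis (-0.21, adjusted p = 0.037) lost it in 8 of 12 such fits (adjusted p up to 0.13) and with the block (0.082). Of 20 enzymes of serine and folate-linked carbon units, 1 rose and 3 fell. Those that fell were Mtr, methionine synthase (-0.23), Mthfd1 (-0.36) and Tyms, thymidylate synthase (-0.59). The adjusted p of these 3 ran from 0.0046 to 0.02.

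Of 29 genes of the tricarboxylic acid cycle and its branches, 1 rose and 2 fell, a share near that of all genes tested. Their median was -0.11, 26 had negative values, and 13 were lower with AKG within each pair of replicates, where 13.3% of all genes tested were. Acod1, which turns cis-aconitate into itaconate in activated macrophages, stood at 101, 74.0, 67.9 and 70.1 CPM with AKG, 28.2, 37.1, 58.7 and 54.9 CPM with glutamine and 107, 116, 138 and 156 CPM without either (log2 fold change 0.86, SE 0.20, adjusted p = 0.021). The block gave an adjusted p of 0.054, and the call was also lost without glutamine replicate 1 or 2 (adjusted p up to 0.07). The difference in Acod1 was 1.42 within replicates 1 and 2 and 0.28 within replicates 3 and 4, and these differ (adjusted p = 0.044 for the difference). Me1, malic enzyme (-0.62, adjusted p = 0.0054), and Idh1, the cytosolic enzyme that makes AKG and NADPH from isocitrate (-0.26, adjusted p = 0.021), fell. Idh1 lost the call without glutamine replicate 2, 3 or 4 or AKG replicate 1, 2 or 3 (adjusted p up to 0.076). Ogdh, which consumes AKG in the cycle, did not pass (-0.13, adjusted p = 0.19). None of 32 oxidative phosphorylation genes (median -0.07) and none of 31 lysosome genes (median 0.01) passed. Of 26 genes of fatty acid oxidation, 2 rose and 1 fell, also near the share of all genes. Pdk4, the kinase that shuts pyruvate dehydrogenase, fell from 1.99, 1.96, 5.97 and 6.27 CPM to 1.14, 0.936, 1.98 and 1.58 CPM (log2 fold change -1.42, SE 0.18, adjusted p = 0.00046). Without glutamine it stood at 0.268, 0.270, 0.980 and 0.683 CPM. Acsl1, which activates fatty acids, rose (0.51, adjusted p = 0.02), as did Slc25a20, the acylcarnitine carrier (0.25, adjusted p = 0.023, 0.054 with the block). The call of Acsl1 ended without glutamine replicate 1 or AKG replicate 1 or 2 (adjusted p up to 0.063), and that of Slc25a20 without glutamine replicate 2, 3 or 4 or AKG replicate 1, 2 or 4 (adjusted p up to 0.082).

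Genes of sterol and fatty acid synthesis, targets of the sterol-sensing SREBP factors, stood lower with AKG. Of 24 cholesterol genes tested 12 fell and none rose, with a median of -0.40, and all 24 had negative values. With the block 11 fell. Leaving out glutamine replicate 3 or 4, or AKG replicate 2 or 3, left 7. The median without glutamine against glutamine was -0.30 (11 lower). Stard4, a sterol carrier, stood at 12.6, 12.5, 24.5 and 26.1 CPM with AKG, 24.5, 27.9, 39.5 and 38.4 CPM with glutamine and 16.6, 15.6, 19.2 and 21.7 CPM without either (log2 fold change -0.82, SE 0.12, adjusted p = 0.00092). Within each pair of replicates both AKG libraries of Stard4 were below both glutamine libraries. The isomerase Idi1 (-1.25) and the regulator Srebf2 (-0.44) also fell. Of 17 genes of fatty acid synthesis 7 fell (median -0.23), and 6 fell with the block. Fitted alone, replicates 1 and 2 gave 7 lower and 2 higher, and replicates 3 and 4 gave 4 lower. Fads2, a desaturase of polyunsaturated fatty acids, stood at 3.18, 1.87, 2.25 and 2.19 CPM with AKG and 5.29, 5.21, 7.60 and 7.63 CPM with glutamine (log2 fold change -1.45, SE 0.22, adjusted p = 0.0016). Acss2, which activates acetate (-0.47, adjusted p = 0.0021), and Fasn, fatty acid synthase (-0.71, adjusted p = 0.0029), had all AKG libraries below all glutamine libraries too. TCACNCCAC, a sterol regulatory element, was found at 1 of 20 starts of the cholesterol list against 1.05% of all promoters, and CCAAT, the NF-Y site, at 16 of 20 against 33.8%.

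Cell division genes stood below their level with glutamine when AKG was given in its place. Of 28 mitotic genes tested 23 fell against glutamine and none rose, with a median of -1.28 (-0.77 within replicates 1 and 2, -1.69 within replicates 3 and 4). With the block 21 fell, and leaving out each library in turn gave 19 to 27. Without glutamine the median against glutamine was -1.54 (28 lower), and AKG against no glutamine gave 0.37 (2 higher). The list summed to 117, 108, 116 and 107 CPM in replicates 1 to 4 with AKG, 189, 175, 321 and 377 CPM with glutamine and 105, 106, 72.5 and 91.1 CPM without either. Each AKG library was below each glutamine library. Ccnb2, a cyclin of the entry into mitosis (chromosome 9, 70407692 to 70421547, minus strand), stood at 0.555, 0.453, 0.812 and 0.976 CPM with AKG, 1.68, 1.72, 5.06 and 5.55 CPM with glutamine and 0.268, 0.210, 0.588 and 0.718 CPM without either (log2 fold change -2.25, SE 0.17, adjusted p = 1.2e-05). Ccna2, a cyclin of S phase and mitosis (-2.39, adjusted p = 1.2e-05), Kif20a, a kinesin of cytokinesis (-1.46, adjusted p = 4.7e-05), Plk1, a mitotic kinase (-2.48, adjusted p = 0.00014), and Cdc20, which activates the anaphase-promoting complex (-1.62, adjusted p = 0.00014), showed the same separation in all libraries. 5 mitotic genes fell further within replicates 3 and 4 than within 1 and 2, namely Ccnb1, Aurkb, Tpx2, Prc1 and Nuf2, as tested by the interaction. Of 30 DNA replication genes 10 fell (median -0.32). The count was 2 for replicates 1 and 2 alone, 10 for replicates 3 and 4 alone and 6 without AKG replicate 4. Rrm2, the ribonucleotide reductase subunit that limits deoxynucleotide supply, stood at 1.42, 0.966, 1.54 and 2.27 CPM with AKG, 3.92, 3.22, 16.3 and 15.9 CPM with glutamine and 1.41, 0.779, 1.34 and 1.37 CPM without either (log2 fold change -2.47, SE 0.34, adjusted p = 0.00082). Tk1, thymidine kinase (-0.64, adjusted p = 0.0039), and Mcm4, of the replicative helicase (-0.31, adjusted p = 0.0045), fell by less.

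CCAAT, bound by the factor NF-Y, was found before 21 of 26 starts of the mitotic list against 33.8% of all promoters, and TTTGAA, the cell cycle homology region, before 10 of 26 against 16.0%. The stretches of Ccnb2 at chr9:70421555-70421651 (minus strand), Cdc20 at chr4:118437344-118437406 (minus strand) and Plk1 at chr7:122159411-122159434 (plus strand) are shown, chosen as above, with CCAAT in capitals.
Ccnb2: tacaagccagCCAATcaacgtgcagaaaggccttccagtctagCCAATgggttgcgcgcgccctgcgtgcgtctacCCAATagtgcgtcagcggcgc
Cdc20: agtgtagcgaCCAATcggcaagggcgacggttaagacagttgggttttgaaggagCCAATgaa
Plk1: atccccgcggCCAATcagcaacgc
Ccnb2 holds 3 matches on the gene's strand, Cdc20 holds 2 and Plk1 holds 1. Plk1 stood at 0.586, 0.423, 0.947 and 0.950 CPM with AKG and 2.27, 1.75, 6.61 and 6.63 CPM with glutamine.

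**Figure D3:**
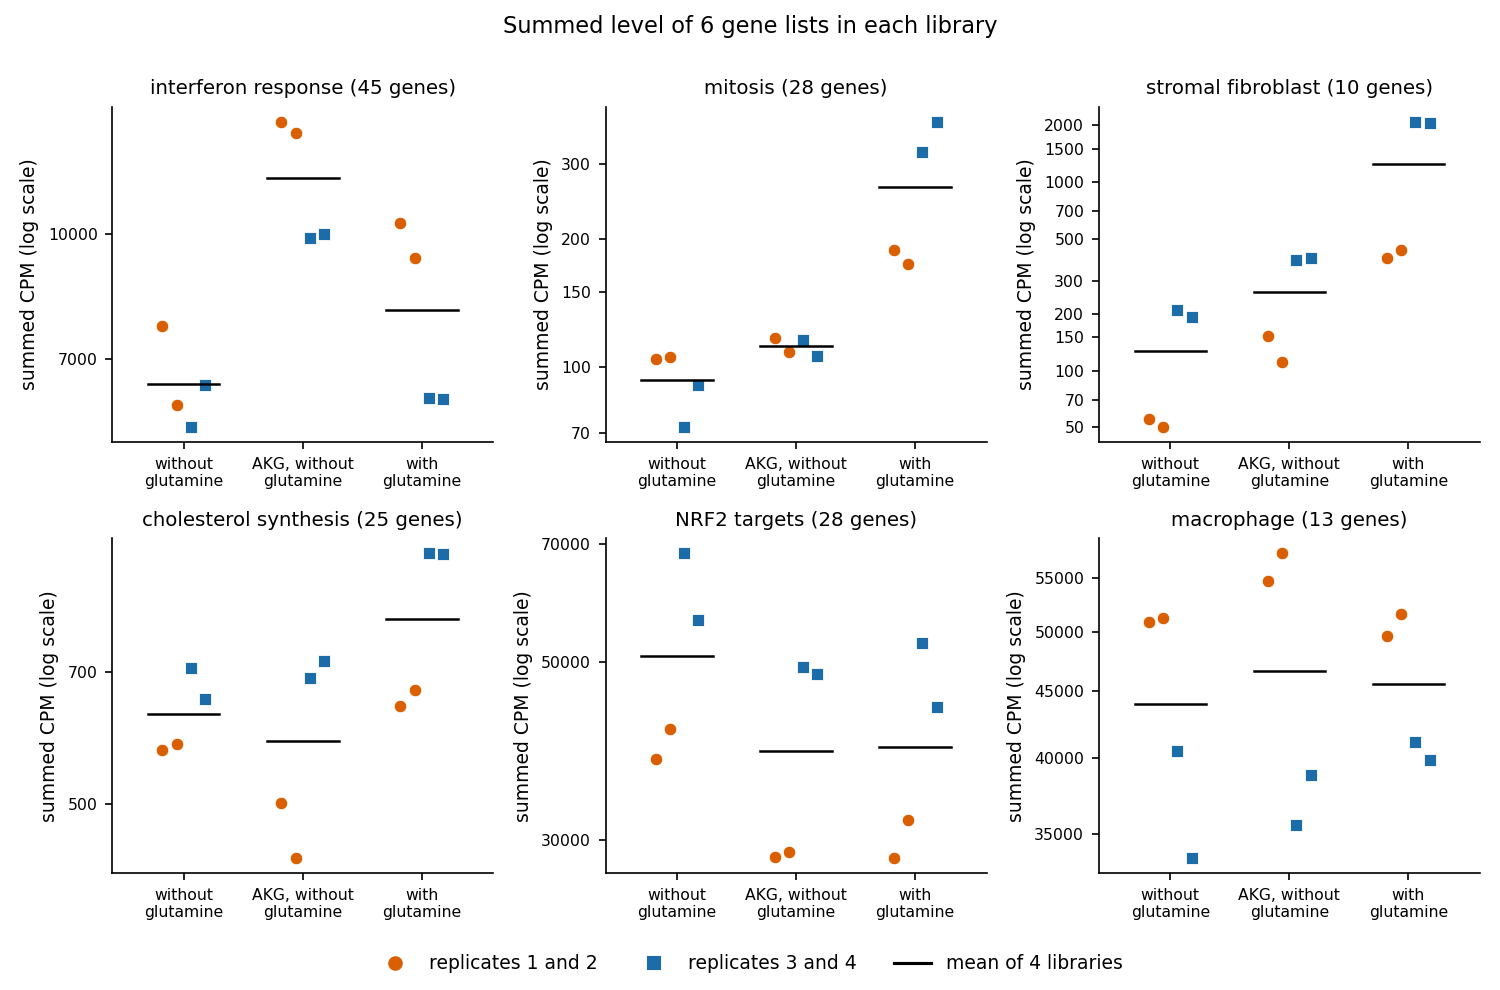
Summed level of 6 gene lists in each library (CPM, logarithmic vertical axis), with circles for replicates 1 and 2, squares for replicates 3 and 4 and a bar for the mean of 4 libraries. Mitotic genes lie at 107 to 117 CPM with AKG and 175 to 377 CPM with glutamine. Stromal markers lie at 111 to 396.7 CPM with AKG, 397.0 to 2079 CPM with glutamine and 50.4 to 210 CPM without either. They separate the groups clearly only within each pair of replicates.

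Collagens and other extracellular matrix genes made up most of the largest falls. Of 28 tested, 25 fell with AKG against glutamine and none rose, with a median of -1.45 (-1.44 and -1.47 within the replicate pairs). With the block 24 fell. The summed level of the list was 1523, 1411, 2773 and 2765 CPM with AKG, 1948, 2423, 7361 and 7329 CPM with glutamine and 1778, 2375, 2785 and 2668 CPM without either, so by their sum the groups with AKG and without either overlapped. Their median was -1.97 without glutamine against glutamine (25 lower) and 0.84 with AKG against no glutamine (22 higher). Of the tested genes of the list, Col1a1, Col1a2, Col3a1, Postn and Dcn are also stromal markers. Col1a1, a chain of type I collagen (chromosome 11, 94936224 to 94953042, plus strand), stood at 28.3, 17.8, 70.2 and 74.9 CPM with AKG, 104, 125, 651 and 634 CPM with glutamine and 6.53, 7.46, 33.8 and 26.4 CPM without either (log2 fold change -2.74, SE 0.19, adjusted p = 7.7e-06). AKG minus no glutamine gave 1.5 (adjusted p = 0.00035). Col6a3 and Col2a1, chains of type VI and type II collagen, fell by 2.52 and 2.85. Col2a1 stood at 0.524, 0.362, 3.49 and 3.67 CPM with AKG, 3.99, 3.68, 25.7 and 20.7 CPM with glutamine and 0.100, 0.359, 2.91 and 3.31 CPM without either. Sparc, a matrix glycoprotein, fell from 58.3, 63.3, 377 and 357 CPM to 20.1, 15.1, 78.1 and 84.7 CPM (log2 fold change -1.98, SE 0.11, adjusted p = 1.8e-06). Replicates 3 and 4 with AKG were higher than replicates 1 and 2 with glutamine, so for Sparc the groups separated only within the replicate pairs. Actg2, a smooth muscle actin (-2.23), Itga11, a collagen receptor (-2.13), Postn, periostin (-2.06), and Srpx2, a secreted sushi-repeat protein (-2.14), were also among the 12 largest falls. Cyr61 and Ctgf, matrix-associated growth regulators listed with the immediate early genes, fell by 1.56 and 1.32. Of the other 24 immediate early genes, 4 rose (Klf6, Jun, Dusp1 and Atf3, by 0.29, 0.35, 0.42 and 0.32), and Dusp1 and Atf3 lost the call with the block (0.081 and 0.075). None of the 4 passed without glutamine replicate 4 or AKG replicate 1, 3 or 4, 1 did without glutamine replicate 1 or 2, and 2 did without glutamine replicate 3.

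**Figure D4:**
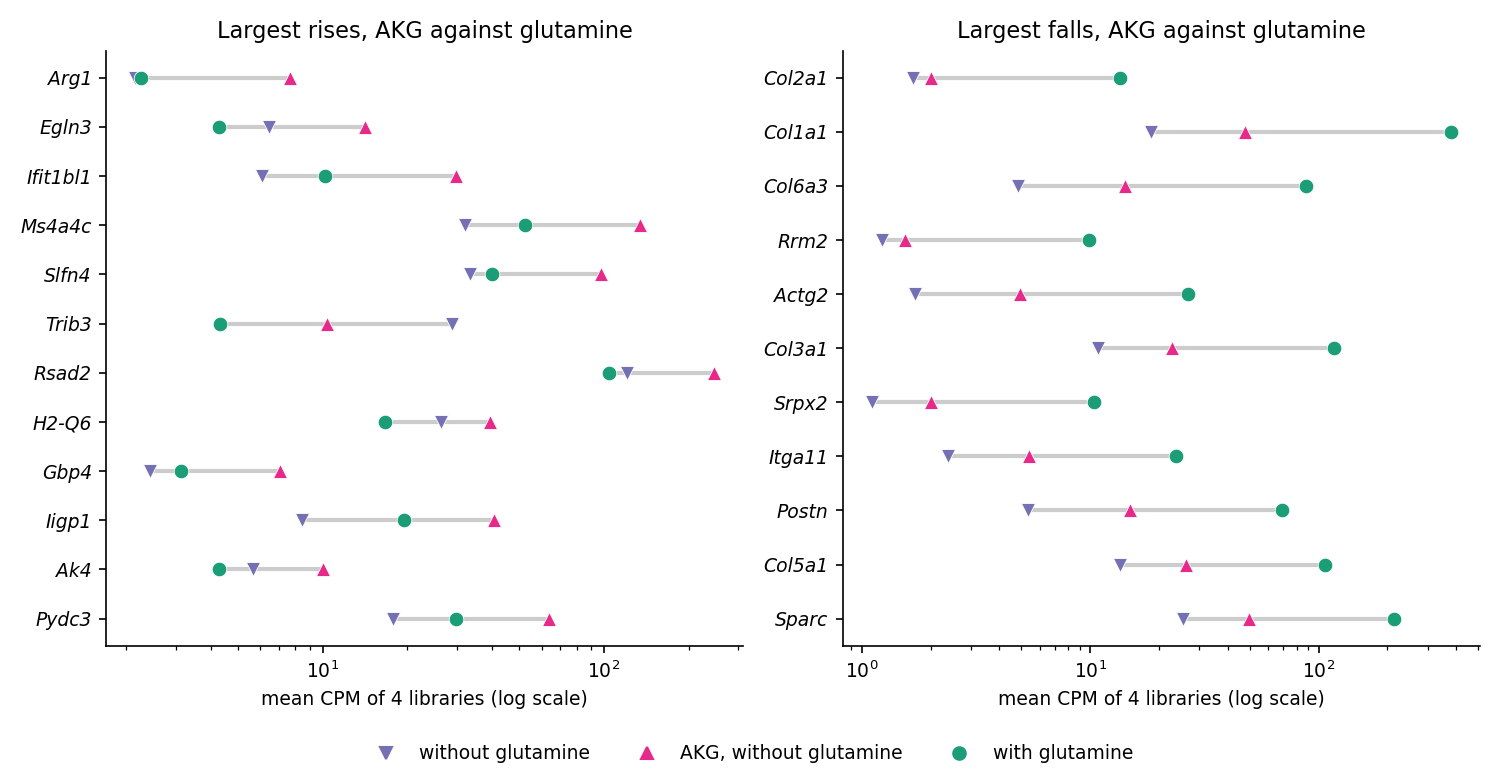
Mean level over 4 libraries (CPM, logarithmic horizontal axis) of the 12 genes with the largest rises (left) and 11 of the 12 with the largest falls (right) with AKG against glutamine, in cells without glutamine, with AKG and with glutamine. Trib3 with AKG lies between the other groups (10.4 against 4.32 and 28.7 CPM), Rsad2 lies above both, and each gene on the right lies between its level without and with glutamine.

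Slpi, an inhibitor of neutrophil proteases, moved the other way from the group without glutamine. It stood at 2.65, 3.35, 3.95 and 5.25 CPM with AKG, 5.48, 7.64, 9.23 and 8.69 CPM with glutamine and 7.93, 11.98, 15.3 and 14.1 CPM without either (log2 fold change -1.04, SE 0.16, adjusted p = 0.0014). Without glutamine it differed from glutamine by 0.66 (adjusted p = 0.0065). The AKG libraries were the lowest of the 3 groups within each pair of replicates. Slpi and Acod1 were the only 2 of 17 antimicrobial and tolerance-spared genes called in the joint fit. Replicates 1 and 2 alone gave 8 higher and 1 lower (5.25% and 6.35% of all genes tested there were). Replicates 3 and 4 alone gave 2 lower (5.05% of all). Of the lists not described so far, LXR targets gave 1 of 14 higher (Mertk) and 1 lower (Arl4c, -0.29), negative regulators of Toll-like receptor signalling 2 of 30 higher (Dusp1 and Atf3), and class II and costimulation genes 1 of 15 (Cd80, 0.44). Arl4c and Cd80 lost the call with the block (0.066 and 0.077) and in 10 and 8 of the 12 fits that left out a library. Replicates 1 and 2 alone gave other counts for these lists: 7 LXR targets higher and 1 lower, and 12 negative regulators higher. They also gave 1 class II or costimulation gene higher and 6 lower. Of all genes tested there, 5.25% were higher and 6.35% lower. Replicates 3 and 4 alone gave 1 LXR target lower, 4 negative regulators higher and no class II or costimulation gene. In that fit 1.13% of all genes tested were higher and 5.05% lower. The unfolded protein response gave 1 of 26 (Ern1, 0.25, 0.059 with the block, and lost in 4 of 12 fits that left out a library), and iron genes 1 of 15 (Slc39a8, -0.36). Polyamine and arginine genes gave 1 of 22 (Arg1). None of 7 histone genes passed.

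For 192 of the 12492 genes (1.54%) the difference between AKG and glutamine itself depended on the pair of replicates in the quasi-likelihood test of the interaction. With its sign kept, the log2 fold change was higher in replicates 3 and 4 than in 1 and 2 for 47 (0.376%). For 145 (1.16%) it was lower. A higher value can be a weaker fall, as in Nqo1 below, and a lower value a stronger one. The count without each of the 8 libraries ran from 49 (glutamine replicate 3) to 189 (AKG replicate 2), and was 54, 73, 59, 80, 56 and 61 without glutamine replicates 1, 2 and 4 and AKG replicates 1, 3 and 4. These genes are described by pair because a joint value does not stand for either. Targets of NRF2, the factor that answers oxidative stress, held 7 of the 47. Within replicates 1 and 2 the median of the 27 tested was -0.45, and within replicates 3 and 4 it was -0.08. In the joint fit 6 fell, but 1 with the block, 15 by DESeq2 and 1 to 12 when a library was left out, so the count rests on single libraries: it was 1 without glutamine replicate 1 or 2, AKG replicate 1 or 2 or replicate 1 without glutamine. It was 2 without replicate 2 of that last group, 3 without its replicate 4, glutamine replicate 3 or AKG replicate 3, and 12 without its replicate 3. Replicates 1 and 2 alone gave 19 lower, and replicates 3 and 4 alone gave none. Nqo1, a quinone reductase (chromosome 8, 107388225 to 107403206, minus strand), stood at 1.73, 2.35, 29.5 and 35.3 CPM with AKG and 17.1, 18.2, 34.6 and 33.6 CPM with glutamine. The difference was -3.11 within replicates 1 and 2 and -0.07 within replicates 3 and 4 (adjusted p = 0.00051 for the interaction). Gclm, of glutathione synthesis, stood at 42.7, 38.5, 295.3 and 281 CPM with AKG and 135, 128, 318 and 331 CPM with glutamine, a difference of -1.69 within replicates 1 and 2 and -0.17 within replicates 3 and 4 (0.0021). Gsta3, a glutathione transferase, gave -2.92 within replicates 1 and 2 and -0.54 within replicates 3 and 4 (0.0024). Replicates 1 and 2 with AKG were the low libraries in each of these 3 genes.

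Pilra, Siglece and Pilrb2, named because they were among the 4 interaction genes with the smallest p, changed sign between the pairs. Pilra, an inhibitory immunoglobulin-like receptor (chromosome 5, 137821952 to 137836281, minus strand), stood at 60.8, 58.8, 17.4 and 17.5 CPM with AKG and 23.3, 26.1, 31.1 and 29.6 CPM with glutamine, a difference of 1.27 within replicates 1 and 2 and -0.80 within replicates 3 and 4 (adjusted p = 0.00026 for the interaction). Siglece, an inhibitory receptor for sialic acid, stood at 49.6, 44.5, 13.4 and 13.8 CPM with AKG and 12.7, 15.7, 22.4 and 19.3 CPM with glutamine, 1.73 within replicates 1 and 2 and -0.62 within replicates 3 and 4 (0.00076). Pilrb2, an activating relative of Pilra whose reads may be shared with its paralogs, gave 1.26 within replicates 1 and 2 and -0.51 within replicates 3 and 4 (0.00062). In all 3, both AKG libraries were above both glutamine libraries in replicates 1 and 2 and below them in replicates 3 and 4. 5 of 17 antimicrobial and tolerance-spared genes were among the 145: Lcn2, Fpr1, Fpr2, Acod1 and Cd14, with a list median of 0.38 within replicates 1 and 2 and -0.27 within replicates 3 and 4. None of the 44 interferon genes was called for the interaction.

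**Figure D5:**
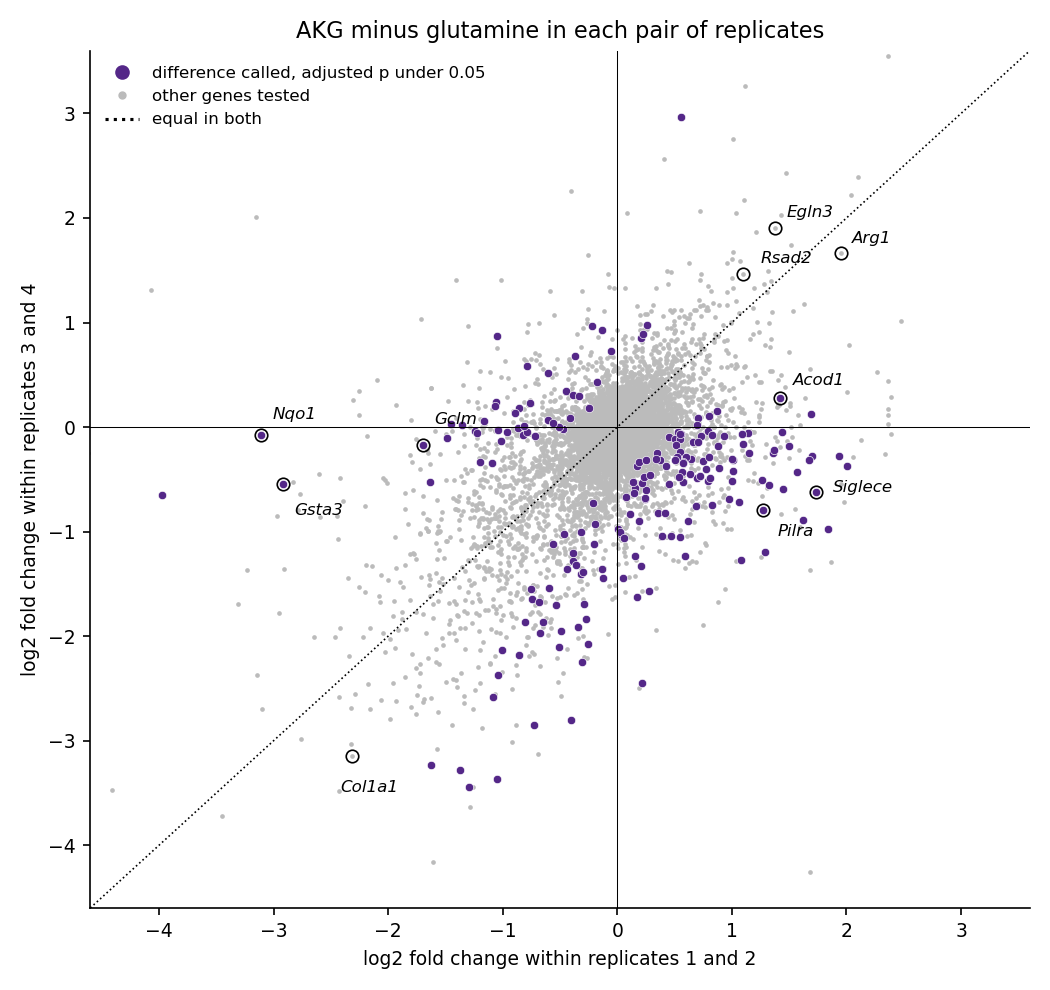
Log2 fold change of AKG minus glutamine within replicates 1 and 2 (horizontal axis) and within replicates 3 and 4 (vertical axis), 1 point per tested gene, with 5 genes outside the plotted range. Purple points are the 192 genes whose difference between the pairs was called, and circles mark named genes. Nqo1 lies at -3.11 and -0.07, Pilra at 1.27 and -0.80, and Rsad2, Arg1 and Egln3 lie well above 0 on both axes.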

How the data were processed

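Total RNA of 12 endotoxin-tolerant macrophage libraries was used. Stranded TruSeq libraries were made, per the labels' protocols, and the authors deposited raw counts per gene. STAR, HTSeq and mm10 are named in the submitters' processing notes, and the sources used here give neither their versions nor the strand setting. Of 115 named genes, 111 matched GENCODE vM21 (GRCm38), of which 16 share bases with a further gene in the same orientation and 41 in the opposite one, so their counts are less certain. Mitochondrially encoded genes are not analysed here.

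Of 23052 genes, 17516 had a count and 12492 passed edgeR's filterByExpr. All 12 libraries were fitted in edgeR 4.0.16 (R 4.3.3, limma 3.58.1, DESeq2 1.42.0 as an alternative) with TMM, the group and a term for replicates 1 and 2 against 3 and 4. The quasi-likelihood F test gave p-values, adjusted by Benjamini-Hochberg over all genes tested, and a gene was called below 0.05. The estimated biological coefficient of variation came to 0.118 with that term, 0.271 without it and 0.124 with the replicate block. The fit with that term had 8 residual degrees of freedom. Each SE belongs to its log2 fold change. Figures used Python 3.11.15 and matplotlib 3.10.9.

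The replicate numbers were checked as pairs: deviations from the group means of same-number AKG and glutamine libraries correlated at 0.731, 0.823, 0.712 and 0.741. Within replicates 1 and 2 the value was 0.0508 and within 3 and 4 it was -0.400, so beyond the difference of the replicate pairs the numbers did not pair the libraries.

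Members and gene lists were chosen with earlier results of these data known. Named genes were the 12 largest rises and falls among the calls, limited to genes averaging at least 2 in log2 CPM whose groups did not overlap within either replicate pair, the 3 members of each list with the smallest p, 17 genes of glutamine, tolerance and polarisation biology (Retnla among them did not pass the filter), and the 4 interaction genes with the smallest p. Some genes that this rule names are not reported here. Further list members are named where a count is small, where a promoter is shown, or after their values were seen. Promoter sequences are from RefSeq (GRCm38.p6).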

Additional observations from a re-analysis of the deposited data

Results flagged for a closer look

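Of 327 groups of 4 libraries of the named genes, 3 (0.917%) held a library far from the others. Chance gives 5% only where the 4 values come from 1 population. Here each group holds 2 pairs of replicates that differ, so a single distant library is rarely flagged. The share therefore says nothing about how even the libraries are. Cox6c, a subunit of cytochrome oxidase, stood at 47.8 CPM in glutamine replicate 1 and at 52.4 to 53.2 CPM in the other glutamine libraries. Rrm2 stood at 0.779 CPM in replicate 2 without glutamine and at 1.34 to 1.41 CPM in the others of that group. Scd1, a fatty acid desaturase, stood at 17.8 CPM in replicate 1 without glutamine and at 15.9 to 16.0 CPM in the others.

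In 7 named genes the log2 difference between AKG and glutamine depended on the pair of replicates by the interaction test of edgeR. The value within replicates 3 and 4 minus that within replicates 1 and 2 was 3.04 for Nqo1, 2.38 for Gsta3 and 0.63 for Gclc, which encodes the catalytic subunit of glutathione synthesis. It was -1.13 for Acod1, -1.77 for Pilrb2, -2.07 for Pilra and -2.35 for Siglece. The labels do not say what distinguishes the replicate pairs, so no label separates a technical from a biological difference between them.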

How the results depend on the processing

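Without the term for the replicate pairs no gene was called, 0 higher and 0 lower, and all 1155 genes kept their direction. With the replicate block 884 were called, of which 871 were shared, and the number higher was 206. Higher genes numbered 648 within replicates 1 and 2 alone, 143 within replicates 3 and 4 alone and 523 in the fit of the 8 libraries with glutamine and AKG, where the interaction called 379. Leaving out each library in turn gave 801 to 1596 genes, 154 to 525 of them higher, and 49 to 189 for the interaction. RLE size factors, other filters, DESeq2 and limma-voom gave 981 to 1434 genes, within 1.5 times the count reported. Pilra and Siglece, not called in the joint fit, were lower with AKG within replicates 3 and 4 alone (log2 fold changes of -0.77 and -0.59, adjusted p = 0.0073 and 0.031), against 0.21 and 0.49 in the joint fit.

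Of 73 called named genes, 61 stayed called with the block, 65 within replicates 1 and 2, 48 within replicates 3 and 4, 71 to 73 under RLE, other filters, DESeq2, limma-voom and the 8 libraries, and 60 to 73 with a library left out. None reversed. The calls of Gclm and Gsta3 in the joint fit were also lost with the block (adjusted p = 0.088 and 0.074); its effect on other calls and list counts stands beside them. The depth of genes under 1 CPM limits their precision.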
